A study of Oryza sativa with 12 samples.

Results

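The genes described here encode enzymes and small proteins that control reactive oxygen species and protein thiols in the cell, together with the glutathione S-transferases of detoxification. A gene was a member when its symbol or a synonym in the array annotation was AOX, APX, PRX, GST with a class letter, GRXS, GRXC, TRX, TRXH, SOD or CAT, after an optional Os prefix and followed by a letter or number. Only array rows paired with 1 gene were used, and the row with the highest mean over the 12 arrays stood for the gene. The rule found 50 genes of the 15140 that had a row of their own, and they formed 9 families. These were 1 alternative oxidase, 4 superoxide dismutases, 2 catalases, 6 ascorbate peroxidases, 2 class III peroxidases, 3 peroxiredoxins, 5 glutathione S-transferases, 14 glutaredoxins and 13 thioredoxins by name. The rule used names and no measured change, but the members were chosen with earlier results of these data known. The rule matched 1 gene of another kind, *SDG723*, whose synonym TRX1 stands for a SET-domain protein of the trithorax type and not for a thioredoxin.

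RNA came from shoot apices of *pACT1-GVG>OsWOX4:RNAi* rice seedlings in the Taichung 65 background at 5 days, and it was hybridized to Rice (US) gene 1.0 ST arrays. The seedlings were treated with 10 µM dexamethasone (DEX) for 3 h or for 12 h, or were mock-treated for 3 h or for 12 h, and each of the 4 groups had 3 arrays, 1 per biological replicate. All 4 groups carried the same construct, in which the *ACT1* promoter drives GVG, a chimeric transcription factor that enters the nucleus when DEX binds it and switches on the *OsWOX4* RNAi transcript. The apices held the shoot apical meristem, the younger leaf primordia and the bases of older ones. Because no DEX-treated wild type was analysed here, what DEX or GVG may do on its own cannot be told apart from the silencing of *OsWOX4*.

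Respiration, photosynthesis and oxidases of the plasma membrane produce superoxide, which superoxide dismutases turn into hydrogen peroxide. Catalases, ascorbate peroxidases and peroxiredoxins remove the peroxide, and glutaredoxins and thioredoxins reduce disulfides in other proteins with electrons that come from glutathione, NADPH or, in chloroplasts, ferredoxin. Alternative oxidase passes electrons from ubiquinol straight to oxygen in mitochondria and is a classic marker of mitochondrial stress. Glutathione S-transferases join glutathione to reactive compounds and are induced by many stresses in plants. In growing shoot apices the same systems set the redox state in which cells divide and plastids develop.

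Every value below is a log2 signal as deposited, or a difference between such signals. A row called the brightest of its family had the highest mean log2 signal, which also depends on its probes, so levels are not compared between genes. Array medians lay between 5.64 and 5.66 in the DEX arrays of 12 h and between 5.72 and 5.76 in the other 9 arrays, and replicate arrays correlated at 0.982 to 0.990 across rows within their groups. The *OsWOX4* row was higher by 1.54 at 12 h and by 0.81 at 3 h in DEX arrays. It may read the RNAi transcript, so it checks nothing about silencing. Markers of the sampled tissues moved both ways at 12 h. Only markers matched by name to a row paired with 1 gene were used, and other genes on the marker lists were left out. Of 4 meristem markers so matched *OSH1*, *OSH15* and *OSH71* fell by 0.71, 0.93 and 0.74. *QHB*, which was listed as a root marker too, was higher by 3.91. The summed linear signal of the 4 was 420 to 545 in DEX arrays and 352 to 473 in mock arrays. *QHB* alone gave 196 to 308 in DEX arrays and 14.6 to 22.1 in mock arrays, so the sum does not describe the 3 genes that fell. Of 7 leaf primordia markers 2 rose (*YAB4* and *YAB5*, by 2.08 and 1.42), 4 fell and 1 was not called. Those that fell were *YAB1*, *DL*, *YAB2* and *YAB3*, with log2 differences from −2.69 (*YAB1*) to −0.80 (*YAB3*). The sum of the 7 was 3127 to 3404 in DEX arrays and 2047 to 2196 in mock arrays. *YAB5* and *YAB4* had the highest mean log2 signals of the 7 in these DEX arrays, 10.83 and 9.74. This sum therefore does not describe the 4 genes that fell. Of 4 vascular markers *LOGL3* fell by 2.28, *LOGL10* fell by 1.76 and 2 were not called, with a sum of 399.7 to 473 in DEX arrays and 638 to 689 in mock arrays. The part of these shifts in the results below was not tested. In bulk tissue of this kind, fewer cells of a type and less RNA per cell cannot be told apart. A gene was called at an adjusted p under 0.05 in limma, with the adjustment over all 54922 rows, and "rose" and "fell" are used only of called genes. The replicates were separate biological samples, and their number, 3 per group, limits the precision of each value.

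After 12 h of DEX treatment the redox genes split into both directions: 19 of the 50 rose, 18 fell and 13 were not called. Of all rows, 14.9% were called higher and 28.0% lower, and of the 15140 genes with a row, 22.8% and 32.4%. The members' shares were 38% higher and 36% lower. The median log2 fold change was 0.05 over the members and −0.06 over all rows, and the members ranged from −1.63 (*GRXC7*) to 5.04 (*AOX1*). Called members with a log2 fold change of at least 1 either way numbered 15, 9 higher and 6 lower. By a fold of at least 2.0 with an unadjusted p under 0.01, 5.17% of all rows were higher and 9.76% lower, and the members numbered 9 and 6. The split depended on scaling. After quantile normalization 22 members rose and 12 fell, so that 35.3% of the called members were lower, against 48.6% as deposited; after median centring it was 40%.

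**Figure D1:**
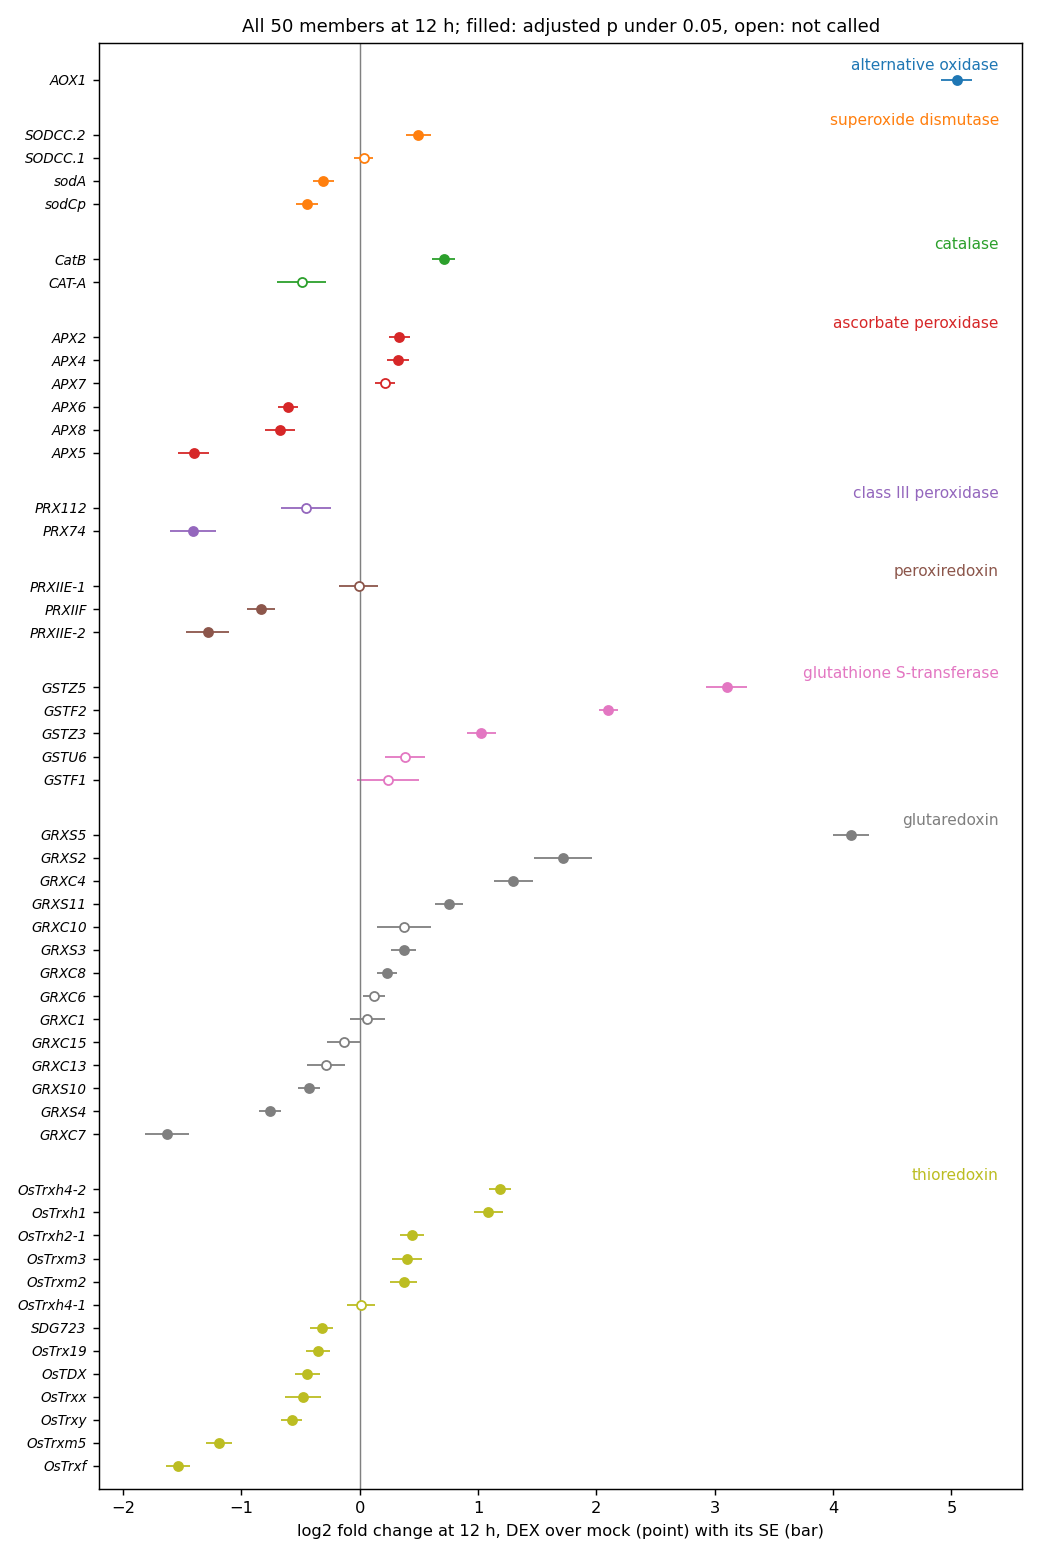
Log2 fold change at 12 h, DEX over mock, for the 50 members by family on a linear axis of log2 units; points are estimates from 6 arrays of 12 h in the fit of all 12 arrays, bars are SE, and filled points passed an adjusted p under 0.05. *AOX1* (5.04), *GRXS5* (4.15), *GSTZ5* (3.10) and *GSTF2* (2.10) lie farthest to the right, and *GRXC7* (−1.63) and *OsTrxf* (−1.53) farthest to the left.

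*AOX1*, the alternative oxidase gene, had the largest change of the module. Its log2 signal was 10.64, 10.18 and 10.50 in DEX-treated apices at 12 h, against 5.48, 5.32 and 5.39 in mock-treated apices. This was a log2 difference of 5.04 (SE 0.13, adjusted p = 1.49e-09), or a 33-fold higher signal. At 3 h the 3 DEX arrays read 5.25, 5.25 and 5.08 and the 3 mock arrays 5.43, 5.30 and 5.65. The DEX arrays lay just below the mock arrays at that time, with a log2 difference of −0.27 (SE 0.13, adjusted p = 0.878), which was not called. The rise was measured in every DEX array of 12 h and in none of 3 h. Rice has further alternative oxidase genes, which were not analysed here.

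**Figure D2:**
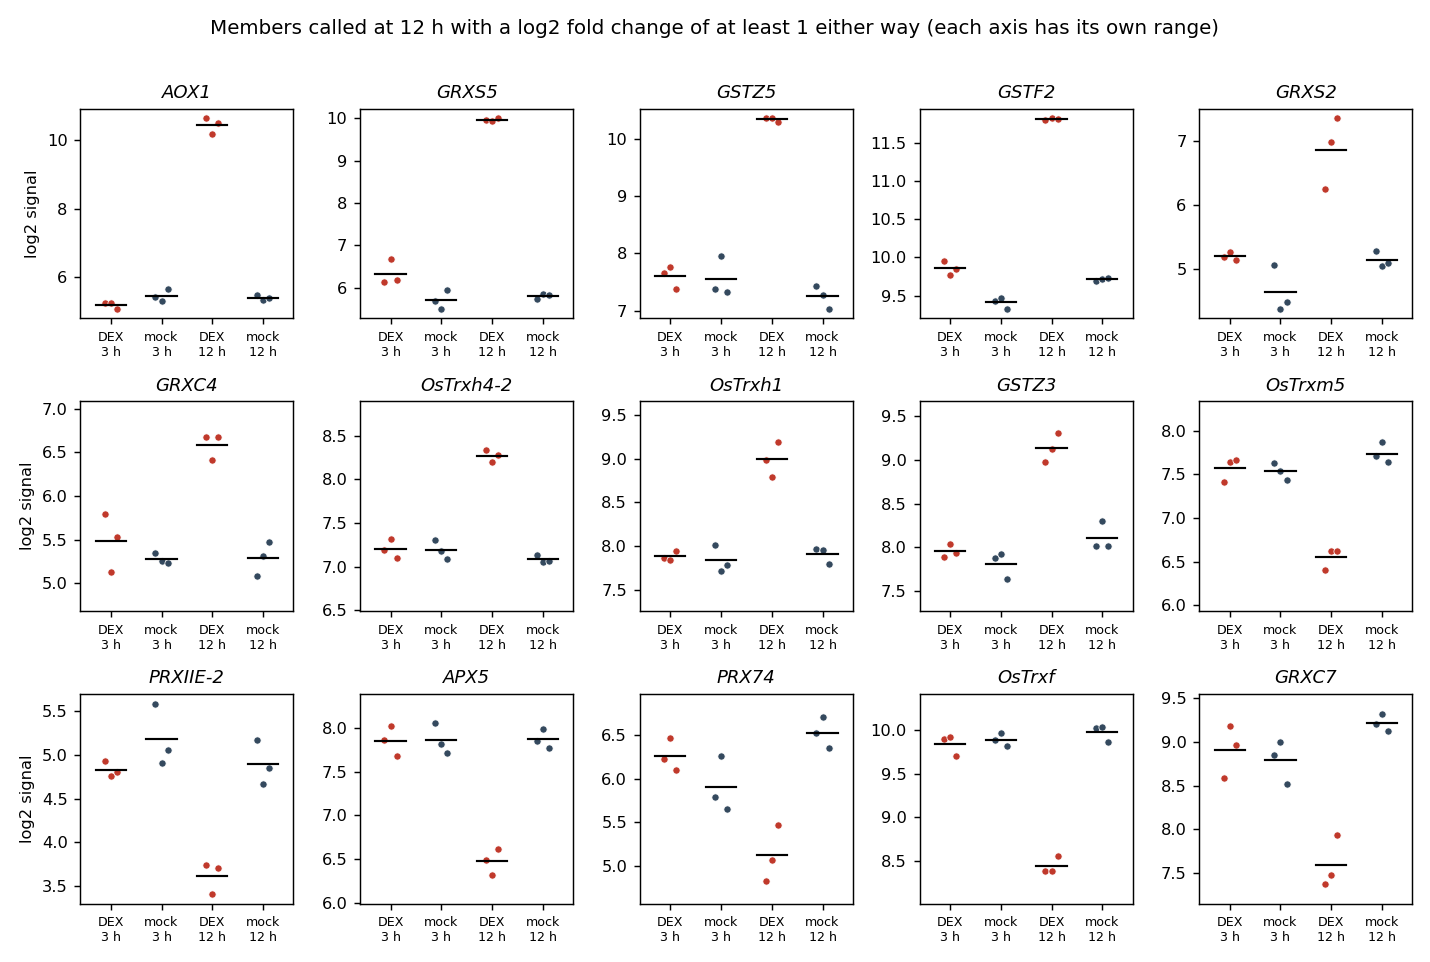
Log2 signal in each of the 12 arrays (points) with group means (lines) for the 15 members called at 12 h that moved by at least 1 log2 unit either way, ordered from *AOX1* to *GRXC7*; each panel has its own axis range. In every panel the DEX arrays of 12 h do not overlap the mock arrays of 12 h, while most groups of 3 h overlap.

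Superoxide dismutases changed little, and in both directions. *SODCC.2*, a cytosolic copper/zinc enzyme gene, rose by 0.50 on the log2 scale (SE 0.11, adjusted p = 0.0028). *SODCC.1*, its cytosolic partner and the brightest row of the family, read 11.12, 11.05 and 11.12 in DEX arrays of 12 h and 11.04, 11.06 and 11.08 in mock arrays. These groups overlapped, and the difference was 0.04 (SE 0.08). *sodCp*, for the copper/zinc enzyme of plastids, fell by 0.44 (adjusted p = 0.00214). *sodA*, for the manganese enzyme of mitochondria, fell by 0.31 (adjusted p = 0.0134) by its brighter row, with no overlap between the groups. The dimmer row of *sodA* went the other way at 12 h, by 0.67 (SE 0.23, adjusted p = 0.0318), and the mean of both rows gave 0.18 (adjusted p = 0.326). The direction of *sodA* therefore depends on the row, and the fall in its brighter row was not called after median centring (adjusted p = 0.0547) or quantile normalization (adjusted p = 0.101).

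Among the peroxide-removing enzymes, *CatB* rose. Catalases break down hydrogen peroxide, mainly in peroxisomes. *CatB*, the brighter catalase row, read 10.61, 10.77 and 10.87 in DEX arrays of 12 h and 10.05, 10.00 and 10.07 in mock arrays, a log2 difference of 0.71 (SE 0.10, adjusted p = 0.000104). The groups did not overlap, and at 3 h the difference was 0.01. *CAT-A* had a difference of −0.49 at 12 h (SE 0.21, adjusted p = 0.0793), which did not pass, although its DEX arrays all lay below its mock arrays. Its mock arrays read 5.38, 5.81 and 5.50 at 12 h and 4.42, 5.05 and 4.47 at 3 h, and every mock array of 12 h lay above every mock array of 3 h. Mock at 12 h was 0.92 above mock at 3 h for *CAT-A*, not called (adjusted p = 0.24).

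The ascorbate peroxidases, which reduce hydrogen peroxide with ascorbate, divided into 2 that rose, 3 that fell and 1 not called. Of all rows 14.9% were higher and 28.0% lower, and of the genes with a row 22.8% and 32.4%. *APX2*, a cytosolic enzyme gene and the brightest row of the family, read 10.29, 10.40 and 10.25 in DEX arrays of 12 h and 10.01, 9.92 and 10.01 in mock arrays, a log2 difference of 0.33 (SE 0.09, adjusted p = 0.00957). *APX4*, of the peroxisomal type, rose by 0.32. *APX7*, for the stromal enzyme of chloroplasts, differed by 0.21 (adjusted p = 0.0669), short of a call. It passed as higher under 7 of the processing alternatives, with adjusted p from 0.00945 after quantile normalization to 0.0433, and 0.016 after median centring. The thylakoid-bound counterpart *APX8* fell by 0.67.

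*APX5* and *APX6*, which are assigned to mitochondria and are direct neighbours in the gene table, both fell. *APX5* read 6.49, 6.31 and 6.62 in DEX arrays of 12 h and 7.86, 7.99 and 7.78 in mock arrays, a log2 difference of −1.40 (SE 0.13, adjusted p = 5.01e-06). Its lowest mock array lay above its highest DEX array by more than a log2 unit. *APX6* fell by 0.60 (adjusted p = 0.0001). Whether their probes read both neighbours was not tested.

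Class III peroxidases are secreted to the cell wall, where they use hydrogen peroxide to oxidize phenolic compounds. *PRX74*, the brighter row, read 4.82, 5.07 and 5.47 in DEX arrays of 12 h, against 6.53, 6.71 and 6.35 in mock arrays, a log2 difference of −1.41 (SE 0.20, adjusted p = 0.000118). At 3 h its groups overlapped and the difference ran the other way, 0.36 (adjusted p = 0.918). *PRX112* differed by −0.45 at 12 h (SE 0.21) and was not called. Rice has a large family of these enzymes, and the rule reached only these members.

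Of the type II peroxiredoxins, thiol enzymes that reduce peroxides, 2 fell and 1 was not called, beside 28.0% of all rows and 32.4% of the genes with a row called lower. In Arabidopsis the F form works in mitochondria and the E form in plastids. *PRXIIF*, the brightest row of the family, read 6.73, 6.90 and 7.07 in DEX arrays of 12 h and 7.85, 7.61 and 7.74 in mock arrays, a log2 difference of −0.83 (SE 0.12, adjusted p = 0.000141). *PRXIIE-2* read 3.74, 3.40 and 3.70 in DEX arrays of 12 h and 5.17, 4.67 and 4.86 in mock arrays, a log2 difference of −1.28 (SE 0.18, adjusted p = 0.000141). Its row was rather dim, with a mean at percentile 28.0 of the row means, which may limit the size of the fall. The groups of both genes were apart at 12 h. *PRXIIE-1*, the paralog of *PRXIIE-2*, had a difference of −0.01 (SE 0.17), with overlapping groups.

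None of the 5 glutathione S-transferase genes that the rule reached fell at 12 h, and genes of this family outside the rule were not analysed here. Of the 5 genes 3 rose, or 60%, beside 14.9% of all rows and 22.8% of the genes with a row. The rise was at least 2-fold in these 3, and the median log2 fold change of the 5 was 1.03. The letter in the name stands for a class, F for phi, Z for zeta and U for tau, but the class of each protein was not checked here. *GSTZ5* read 10.37, 10.37 and 10.31 in DEX arrays of 12 h and 7.43, 7.27 and 7.04 in mock arrays. The DEX arrays lay close together and far above the mock arrays. This was a log2 difference of 3.10 (SE 0.17, adjusted p = 1.06e-07), an 8.58-fold higher signal. At 3 h the DEX arrays of *GSTZ5* read 7.66, 7.76 and 7.38 and the mock arrays 7.38, 7.95 and 7.32, which overlapped.

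*GSTF2* was the brightest row of the family and the member closest to a call at 3 h. At 12 h it read 11.80, 11.83 and 11.81 in DEX arrays and 9.70, 9.71 and 9.73 in mock arrays, a log2 difference of 2.10 (SE 0.08, adjusted p = 1.48e-08). At 3 h it read 9.95, 9.78 and 9.85 in DEX arrays and 9.43, 9.47 and 9.33 in mock arrays. The groups did not overlap at either time, and at 3 h the difference was 0.45 (SE 0.08, adjusted p = 0.0736). Under 6 of the processing alternatives it passed the threshold at 3 h, with adjusted p from 0.00408 to 0.0449. *GSTZ3* read 8.98, 9.13 and 9.31 in DEX arrays of 12 h and 8.01, 8.30 and 8.02 in mock arrays, a log2 difference of 1.03 (SE 0.12, adjusted p = 4.18e-05). *GSTF1* and *GSTU6* had differences of 0.24 and 0.38, neither called, and *GSTU6* was a dim row, below the 25th percentile of row means.

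Glutaredoxins reduce disulfides with glutathione, and the plant-specific CC type binds TGA transcription factors in Arabidopsis. GRXS genes are named for a serine, and GRXC genes for a cysteine, at the last position of the active-site motif. Of 14 glutaredoxin genes 6 rose, 3 fell and 5 were not called, and the median log2 fold change was 0.18. The shares of the family were 42.9% higher and 21.4% lower. Over all rows they were 14.9% and 28.0%, and over the genes with a row 22.8% and 32.4%. Among the 6 GRXS genes 4 rose and 2 fell; among the 8 GRXC genes 2 rose, 1 fell and 5 were not called. Of those 5, *GRXC1*, *GRXC10* and *GRXC13* had rows below the 25th percentile.

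*GRXS5* had the largest change after *AOX1*. It read 9.95, 9.93 and 10.00 in DEX arrays of 12 h, against 5.74, 5.85 and 5.83 in mock arrays. This was a log2 difference of 4.15 (SE 0.15, adjusted p = 7.67e-09), a 17.8-fold higher signal. At 3 h it read 6.13, 6.69 and 6.18 in DEX arrays and 5.68, 5.51 and 5.94 in mock arrays. The groups were already apart at 3 h, with a difference of 0.63 that was not called (adjusted p = 0.255).

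*GRXS2* rose too. It read 6.26, 6.98 and 7.36 in DEX arrays of 12 h and 5.29, 5.05 and 5.10 in mock arrays, a log2 difference of 1.72 (SE 0.25, adjusted p = 0.000152). Its DEX arrays spread over more than a log2 unit, and all lay above the mock arrays. At 3 h the DEX arrays read 5.19, 5.28 and 5.15 and the mock arrays 5.06, 4.39 and 4.50, a difference of 0.56 (adjusted p = 0.802). *GRXS11* and *GRXS3* rose at 12 h by 0.76 and 0.37, whereas *GRXS4* and *GRXS10* fell by 0.76 and 0.43.

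In the GRXC group, *GRXC4* and *GRXC7* moved in opposite directions. *GRXC4* read 6.67, 6.41 and 6.68 in DEX arrays of 12 h and 5.09, 5.31 and 5.48 in mock arrays, a log2 difference of 1.30 (SE 0.16, adjusted p = 5.51e-05). *GRXC7* read 7.37, 7.48 and 7.93 in DEX arrays of 12 h and 9.21, 9.33 and 9.13 in mock arrays, a log2 difference of −1.63 (SE 0.19, adjusted p = 2.84e-05). Neither gene had overlapping groups at 12 h, and the fall of *GRXC7* was the largest in the module. *GRXC8*, the brightest row of the family, read 12.29, 12.31 and 12.41 in DEX arrays and 12.16, 12.08 and 12.07 in mock arrays, a small rise of 0.23 (adjusted p = 0.0405). This call was lost in every fit that left out a single array except that without replicate 3 of the mock group at 3 h, with adjusted p up to 0.111, and when the fit held the 12 h arrays alone. The rest had differences of 0.37 (*GRXC10*), 0.12 (*GRXC6*), 0.06 (*GRXC1*), −0.13 (*GRXC15*) and −0.29 (*GRXC13*), each with overlapping groups. *GRXC10* and *GRXC13* have 4 genes between them in the gene table.

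Thioredoxins reduce disulfides with electrons from thioredoxin reductases, and their letters mark types: the h type is mostly cytosolic, and the f, m, x and y types are plastid proteins. The f and m types activate enzymes of carbon fixation in the light, and the x and y types reduce peroxiredoxins. Of the 12 thioredoxin genes other than *SDG723*, 5 rose, 6 fell and 1 was not called. These were 41.7% higher and 50% lower, beside 14.9% and 28.0% of all rows and 22.8% and 32.4% of the genes with a row. The h type rose in 3 of 4 genes and fell in none, and their median change was 0.76 on the log2 scale. The f, m, x and y types fell in 4 of 6 genes and rose in 2, with a median of −0.53. After quantile normalization *OsTrxx*, *OsTrx19* and *OsTDX* were not called among those that fell (adjusted p = 0.0892, 0.156 and 0.0539), and *OsTrxx* and *OsTrx19* were not called after median centring either (0.0517 and 0.0519). No test compares the types.

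Of the h type, *OsTrxh4-2* and *OsTrxh1* rose at least 2-fold. *OsTrxh4-2* read 8.33, 8.19 and 8.28 in DEX arrays of 12 h and 7.13, 7.05 and 7.06 in mock arrays, a log2 difference of 1.19 (SE 0.09, adjusted p = 1.6e-06). *OsTrxh1*, whose product is abundant in rice phloem sap, read 8.99, 8.79 and 9.19 in DEX arrays of 12 h and 7.97, 7.95 and 7.79 in mock arrays, a log2 difference of 1.09 (SE 0.12, adjusted p = 2.05e-05). In both genes the DEX arrays lay above all mock arrays at 12 h and overlapped them at 3 h. *OsTrxh2-1* rose by 0.44, and *OsTrxh4-1* had a difference of 0.01 (SE 0.12) that was not called.

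Among the plastid types, *OsTrxf* had the largest fall. It read 8.38, 8.38 and 8.56 in DEX arrays of 12 h and 10.03, 10.04 and 9.87 in mock arrays, a log2 difference of −1.53 (SE 0.10, adjusted p = 3.45e-07). *OsTrxm5* read 6.41, 6.62 and 6.62 in DEX arrays of 12 h and 7.71, 7.87 and 7.64 in mock arrays, a log2 difference of −1.19 (SE 0.11, adjusted p = 5.32e-06). In both genes every DEX array lay more than a log2 unit below every mock array. *OsTrxy* and *OsTrxx* fell by 0.57 and 0.48. In contrast, *OsTrxm2*, the brightest row of the family, read 10.14, 10.35 and 10.41 in DEX arrays of 12 h and 10.01, 9.93 and 9.84 in mock arrays, a rise of 0.37 (adjusted p = 0.0199), and *OsTrxm3* rose by 0.40. The m type therefore held both directions. *OsTDX*, which joins a thioredoxin domain to tetratricopeptide repeats, and *OsTrx19* fell by 0.44 and 0.35. *SDG723*, no thioredoxin, fell by 0.32; without it the counts at 12 h were 19 higher and 17 lower of 49.

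Markers of differentiated green leaf were lower at 12 h, while genes for plastid enzymes went both ways. All 3 of these markers that were matched to a row, genes of chlorophyll a/b-binding proteins, fell at 12 h on the log2 scale. Listed markers of other kinds, *RBCS*, *RCA* and *PSBO*, were not matched. *CAB2R* fell by 4.06, *RCABP69* fell by 3.92 and *CAB1R* fell by 1.92. Their summed linear signal was 144 to 207 in DEX arrays of 12 h and 2475 to 2571 in mock arrays of 12 h, and 1787 to 1979 in DEX arrays of 3 h and 2076 to 2297 in mock arrays of 3 h. None of the markers was at 0. The part of this fall in the falls of *OsTrxf*, *OsTrxm5*, *OsTrxx*, *OsTrxy*, *sodCp*, *APX8* and *PRXIIE-2* was not tested. Of the other genes for plastid enzymes, *OsTrxm2* and *OsTrxm3* rose while these markers fell. Their rises, 0.37 and 0.40, were small, and each call was lost when single arrays of 12 h were left out. *APX7* was not called but passed as higher under 7 alternatives, and *PRXIIE-1* was not called. In the related list below, *cdsp32* and *OsNtrC*, for plastid proteins, fell by 1.46 and 0.74. *FTR-B* of that list, for a ferredoxin-thioredoxin reductase, was not called (0.17). The part of the marker fall in these values was not tested either.

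Other genes of the same pathways were taken from a list of 15, of which 2 rose, 5 fell and 8 were not called at 12 h. Their shares of 13.3% higher and 33.3% lower lay near those of all rows, 14.9% and 28.0%. Of the genes with a row, 22.8% were higher and 32.4% lower. The median change of the list was 0.10 on the log2 scale. The largest fall was in *cdsp32*, for a thioredoxin-like protein of the plastid, with 5.35, 4.85 and 4.47 in DEX arrays and 6.48, 6.30 and 6.27 in mock arrays, a log2 difference of −1.46 (SE 0.19, adjusted p = 8.3e-05). *GLDH2*, for the mitochondrial enzyme that makes ascorbate in its last step, read 4.79, 4.70 and 4.79 in DEX arrays and 5.78, 5.77 and 5.61 in mock arrays, a log2 difference of −0.96 (SE 0.12, adjusted p = 4.04e-05). *OsNtrC*, for the plastid reductase that carries its own thioredoxin domain, read 7.22, 7.28 and 7.38 in DEX arrays and 8.04, 8.14 and 7.91 in mock arrays, a log2 difference of −0.74 (SE 0.12, adjusted p = 0.000517). In all 3 genes the groups were apart. The 2 that rose were *MT4B*, for a metal-binding metallothionein, by 0.47 (adjusted p = 0.0233), and *MDAR2*, for a monodehydroascorbate reductase that recycles ascorbate, by 0.42 (adjusted p = 0.0146). *MT4B* has 3 rows, and only the row with the highest mean was looked at. *MDAR5*, of the same enzyme type as *MDAR2*, fell by 0.71, and *MT2C*, another metallothionein gene, fell by 0.49. The NADPH oxidase gene *RBOHB*, whose enzyme makes superoxide outside the cell, had a difference of 0.10, and *GSH1-1*, for the enzyme that starts glutathione synthesis, of 0.26; neither was called.

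At 3 h no member was called in limma, higher or lower, and calls were rare over all rows too, 0.240% higher and 0.00364% lower. At an unadjusted p under 0.05, 4 members differed at 3 h, all higher in DEX arrays: *CAT-A*, *GSTF2*, *GRXS2* and *GRXS5*. Of all rows, 6.11% passed that unadjusted limit. The unmoderated test and the fit with a variance trend each called 1 member, *GSTF2*. Members ranged from −0.43 (*PRX112*) to 0.63 (*GRXS5*), with a median of 0.03, and the groups of 3 h overlapped in 43 of the 50. Of the other 7, DEX arrays lay above mock arrays in 6 (*GSTF2*, *GRXS2*, *GRXS5*, *GRXC8*, *sodA* and *OsTrx19*) and below them in *AOX1*, beside 5.21% and 5.49% of all rows. At 12 h the groups were apart in 41 members, with DEX above in 21 and below in 20, beside 20.2% and 32.2% of all rows.

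**Figure D3:**
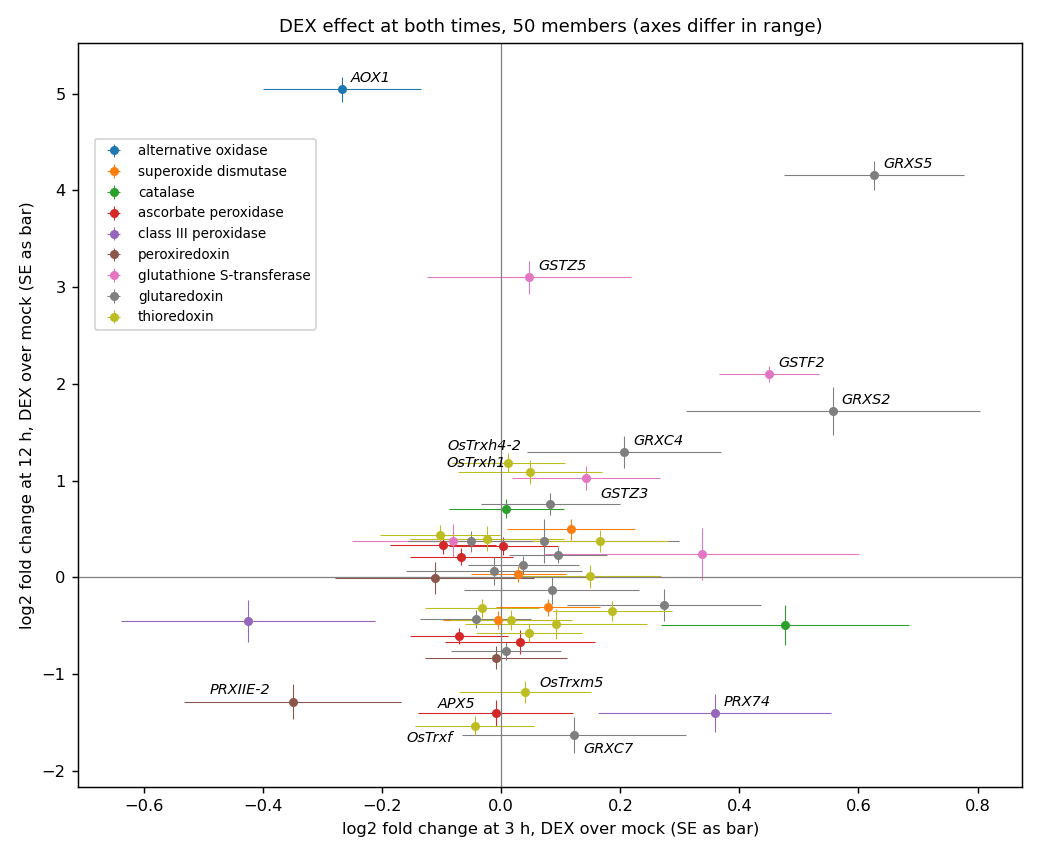
Log2 fold change of DEX over mock at 3 h (horizontal axis) and at 12 h (vertical axis) for the 50 members, coloured by family, with SE as bars; the horizontal axis spans a smaller range. At 3 h all members lie between −0.43 and 0.63, and at 12 h between −1.63 and 5.04.

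The DEX effect at 12 h differed from that at 3 h in 30 members by the test of the difference itself, 13 above 0 and 17 below 0, beside 10.4% and 19.5% of all rows and 16.5% and 25.4% of the genes with a row. After median centring 16 lay above and 13 below 0, and after quantile normalization 17 above and 12 below, so the balance of directions turned with the scaling. *AOX1* had the largest difference between the effects, 5.31, followed by *GRXS5* with 3.53 and *GSTZ5* with 3.05. The lowest were those of *PRX74*, −1.77, and *GRXC7*, −1.75. All 15 members with at least a 2-fold called change at 12 h were among the 30.

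The times were also compared in mock-treated apices. Between mock at 12 h and mock at 3 h no member was called, and of all rows 0.00% were higher and 0.00% lower. At an unadjusted p under 0.05, 12 members differed, all higher at 12 h, and 10.2% of all rows passed that limit; the unmoderated test and the fit with a variance trend called no member. The largest difference was 0.92 in *CAT-A*, and the lowest adjusted p was 0.24.

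The families were followed over the 4 groups by the median of their signals, each centred on the gene's own mean over the 12 arrays. Glutathione S-transferases had a median of −0.30 in DEX and −0.55 in mock arrays at 3 h, and 0.88 in DEX and −0.19 in mock arrays at 12 h. Glutaredoxins had −0.12 in DEX and −0.16 in mock arrays at 3 h, and 0.24 in DEX and 0.03 in mock arrays at 12 h. Thioredoxins had 0.10 in DEX and 0.02 in mock arrays at 3 h, and −0.28 in DEX and 0.04 in mock arrays at 12 h. Peroxiredoxins had the lowest family median in the DEX group of 12 h, −0.45, with 0.27 in the mock group of 12 h. Ascorbate peroxidases and superoxide dismutases, whose genes ran both ways, had medians of −0.12 and −0.09 in the DEX group of 12 h and of 0.02 and 0.05 in the mock group. These family medians are a description without a test.

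**Figure D4:**
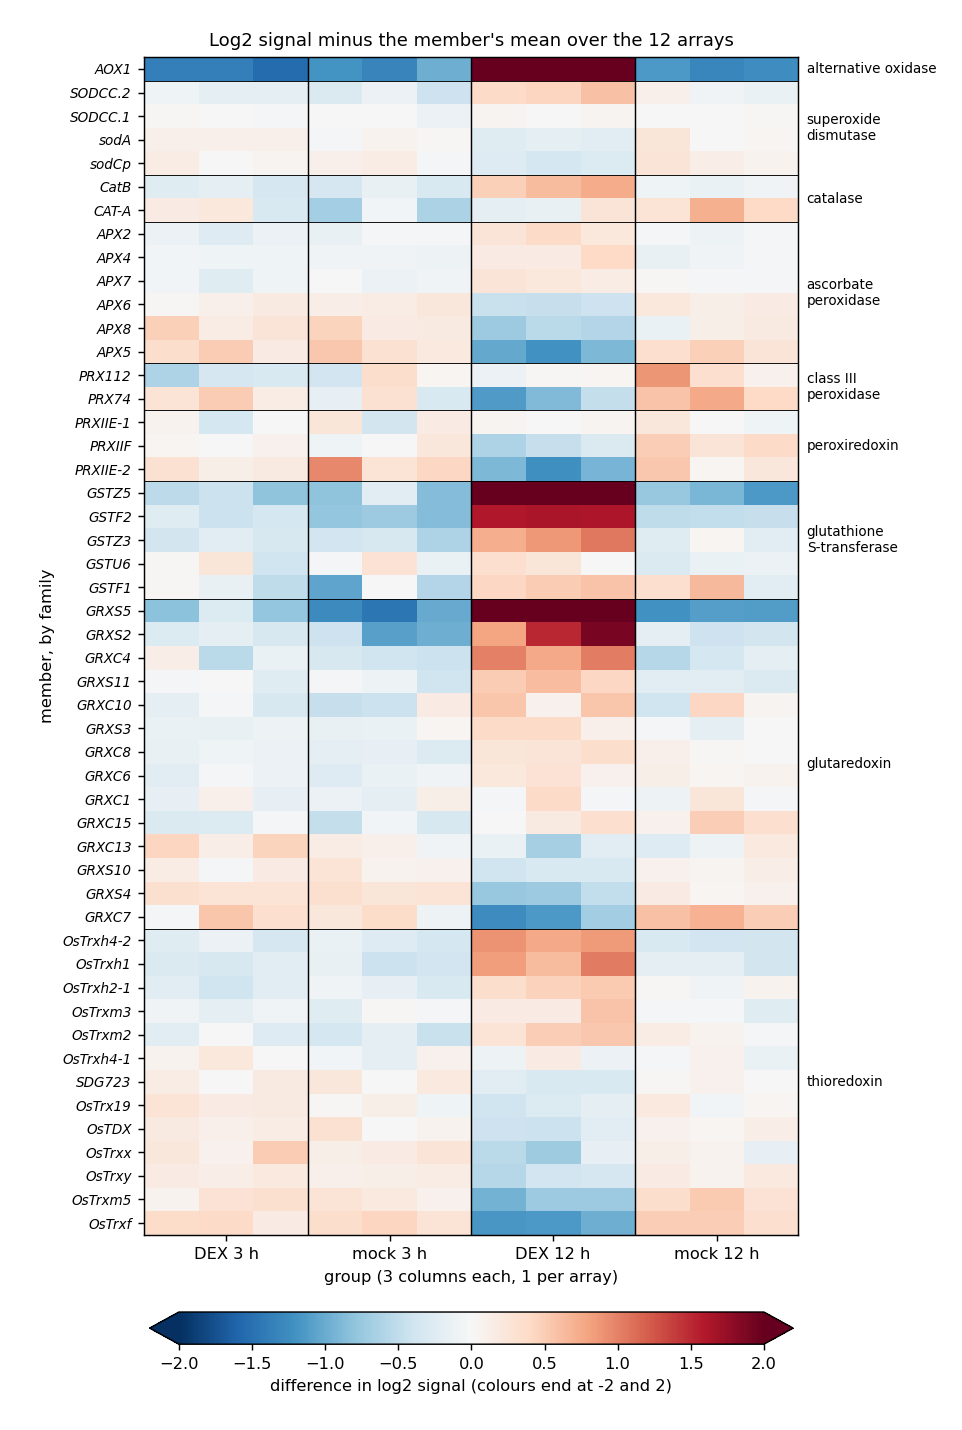
Log2 signal of the 50 members in the 12 arrays, each minus the member's own mean, from blue (lower) to red (higher), with colours ending at −2 and 2; rows are members by family, and columns are the 3 arrays of each group. The DEX group of 12 h stands apart, with the deepest red in *AOX1*, *GSTZ5* and *GRXS5* and blue in *OsTrxf*, *APX5*, *GRXC7* and *PRXIIE-2*.

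Calls were a smaller share of the dim members. Of the 37 members at or above the median row mean, 16 rose and 16 fell at 12 h, 43.2% each way. Of the 13 below it, 3 rose and 2 fell, 23.1% and 15.4%. Over all rows of any brightness the shares were 14.9% higher and 28.0% lower. They were not computed for bright and dim rows apart, so this may hold for the array as a whole. A member without a call may still differ. Among the smaller changes, 9 calls at 12 h were lost when a single array was left out. Besides *GRXC8*, *sodA* (adjusted p = 0.0608) and *APX4* (0.051) were not called once mock replicate 1 of 12 h was left out. *GRXS3* was not called without DEX replicate 1 (0.0545), DEX replicate 2 (0.052) or mock replicate 2 of 12 h (0.0626). For *OsTrx19* the arrays were DEX replicate 1 (0.0563) and mock replicate 1 of 12 h (0.0641). For *OsTrxm2* they were DEX replicates 2 and 3 (0.0597 and 0.0635) and mock replicate 3 of 12 h (0.0726), and for *OsTrxm3* DEX replicate 3 (0.0948) and mock replicate 3 of 12 h (0.105). For *OsTrxx* they were DEX replicates 1 and 2 (0.0707 and 0.0986) and mock replicates 1 and 2 of 12 h (0.0792 and 0.073), and for *SDG723* the array was mock replicate 2 of 12 h (0.0584). In turn *CAT-A* passed without DEX replicate 3 of 12 h (0.0418) or mock replicate 2 of 3 h (0.0464), *PRX112* without mock replicate 3 of 12 h (0.0443), and *GSTU6* without DEX replicate 3 of 3 h (0.0472).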

How the data were processed

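Shoot apices of seedlings carrying the inducible *OsWOX4* RNAi construct were measured on 12 arrays of 1 color, 3 for each treatment and time. The signals had been normalized by the authors with Expression Console 1.3 of Affymetrix, and the deposited values are normalized log2 signals, as read from their range; the genome build of the array was not given in the sources used here. No background correction or scaling was added. Of 54922 rows, 15829 were paired with 1 gene by the platform annotation, 440 with several and 38653 with none. All 15140 genes matched the gene table of assembly ASM3414082v1, used for names and neighbours only.

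Group means were fitted in limma 3.58.1 (R 4.3.3) over all rows and arrays, with moderated variances and the Benjamini-Hochberg adjustment over all rows, two-sided. The members and the lists were chosen with earlier results of these data known. Every member is named with its change at 12 h, and values in every array are given for *AOX1*, *GSTZ5*, *GSTF2*, for called members with a log2 fold change of at least 1 either way and for the brightest row of each family. For the related list, up to 3 called genes per direction were named, and *MDAR5*, *MT2C*, *RBOHB*, *GSH1-1* and *FTR-B* were added after their values were seen. *GRXC1* has 2 rows with the same 12 values.

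The alternatives tried were quantile normalization, centring each array on its median, leaving out rows below the 25th percentile of row means or below the median row, a variance trend, an unmoderated test, 1 row per gene, the mean of a gene's rows, a fit of only the 6 arrays compared, the study's limits of a 2.0-fold change and p under 0.01, the replicate number as a block, the module without *SDG723*, and leaving out each array. The fit was tested on simulated data. Promoters and protein motifs were not analysed here. Figures were drawn with matplotlib 3.10.9.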

Additional observations from a re-analysis of the deposited data

Results flagged for a closer look

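In 30 members the DEX effect at 12 h differed from the DEX effect at 3 h by limma's test of that difference, with an adjusted p under 0.05 over all rows. The values given are log2 fold changes at 12 h minus those at 3 h. Among the peroxide and superoxide enzymes and alternative oxidase, the difference lay above 0 in *AOX1* (5.31), *CatB* (0.70) and *APX2* (0.43). It lay below 0 in *CAT-A* (−0.97), *sodA* (−0.39), *sodCp* (−0.44), *APX5* (−1.39), *APX6* (−0.53), *APX8* (−0.70), *PRX74* (−1.77), *PRXIIF* (−0.82) and *PRXIIE-2* (−0.93). *CAT-A* was not called at either time by itself, and its effects had opposite signs.

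Among the glutathione S-transferases the difference was above 0 in *GSTF2* (1.65), *GSTZ3* (0.89) and *GSTZ5* (3.05). Glutaredoxins above 0 were *GRXS2* (1.16), *GRXS5* (3.53), *GRXS11* (0.67) and *GRXC4* (1.09), and those below 0 were *GRXS4* (−0.77), *GRXS10* (−0.38) and *GRXC7* (−1.75). The thioredoxins above 0 were all of the h type, *OsTrxh4-2* (1.17), *OsTrxh1* (1.04) and *OsTrxh2-1* (0.54). Those below 0 were *OsTrxf* (−1.49), *OsTrxy* (−0.62), *OsTrx19* (−0.54), *OsTDX* (−0.46) and *OsTrxm5* (−1.23). No explanation of these differences was tested.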

How the results depend on the processing

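Of the 37 members called at 12 h, 26 kept call and direction in every alternative scaling, filter, test, row choice, block and left-out array in which they were tested at an adjusted p under 0.05. Of the 13 uncalled members 6 passed in at least 1 of these: *APX7* in 7 of them, *SODCC.1* and *GRXC6* only after quantile normalization, *GSTU6* after median centring, in the fit of 6 arrays and without DEX replicate 3 of 3 h, *CAT-A* only without mock replicate 2 of 3 h or DEX replicate 3 of 12 h, and *PRX112* only without mock replicate 3 of 12 h. By the stricter limits of a fold of at least 2.0 and an unadjusted p under 0.01, 9 members were higher and 6 lower at 12 h, since the fold limit leaves out smaller changes. At 3 h 1 member, *GSTF2*, was higher after quantile normalization (adjusted p = 0.0449), with dim rows left out at the 25th percentile (0.0366) or the median (0.0128), with a variance trend (0.00408), in the unmoderated test (0.0197) and with 1 row per gene (0.0129). The cause was not tested. The mean of both rows turned *sodA* at 12 h to 0.18 (adjusted p = 0.326), its rows having opposite signs. Without 1 array, 16 to 19 members were higher and 15 to 19 lower at 12 h, 0 at 3 h, and 11 to 14 and 12 to 17 differed above and below 0 between the times. With the replicate block, 18 were higher and 18 lower at 12 h and 0 at 3 h, and 13 and 15 differed between the times; *GRXC8* lost its call (adjusted p = 0.0659). The labels do not say whether the replicate numbers pair the arrays. Deviations of same-numbered arrays correlated at −0.05 to 0.17, with a mean of 0.0115, against a mean of −0.0057 for different numbers. Of the 12 arrays 5 correlated best with their own number. With 3 arrays per group these values cannot settle whether the numbers pair the arrays. Scaling moved the median of all rows at 12 h from −0.06 to 0.02 (median centring) and 0.03 (quantile normalization), and the lower share of all called rows from 65.2% to 56.7% and 53.7%. *GRXS10* and *OsTDX* lost their calls after quantile normalization, and *SDG723*, *sodA*, *OsTrx19* and *OsTrxx* under both scalings. Signal limits at least 4 members, which had row means below the 25th percentile.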
